A study of Mus musculus with 15 samples.

Results

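Lipid droplets, the stores of neutral fat in cells, carry a coat of proteins. The genes of 10 proteins of the droplet or of its formation were followed in mouse liver: Cidec, Cideb, Plin2, Plin3, Plin4, Plin5, G0s2, Fitm2, Hsd17b11 and Hsd17b13. They were chosen by name, as members of the Cide and perilipin families and other droplet proteins, with earlier results of these data known. They are 10 of the 25731 genes in the deposited tables. RNA from livers of C57BL/6 mice, an inbred strain, was sequenced after 3 days on a ketogenic diet or on a high-fat diet, both given at 12 weeks of age, or on chow, with 5 libraries per diet. No transgene, knockout or drug was involved. The labels used here do not give the age of the chow mice, the sex of any mice or what the diets contained. Nothing states that each library came from a separate mouse, so the p values measure the spread between these libraries, which may be partly technical.

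A lipid droplet is a core of triglyceride and sterol ester under a single layer of phospholipid. It forms in the endoplasmic reticulum, where Fitm2 takes part in droplet formation. Perilipins (Plin2 to Plin5) bind its surface and limit the access of lipases, Cide proteins (Cideb, Cidec) join droplets and enlarge them, and G0s2 inhibits the main triglyceride lipase, Pnpla2. Hsd17b11 and Hsd17b13 are dehydrogenases of the short-chain family that sit on droplets. In hepatocytes the main coat protein is Plin2, while Plin1, Plin4 and Cidec are best known from fat cells. Several of these genes are targets of PPARalpha, the nuclear receptor that is switched on by fatty acids in the fasted liver.

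The ketogenic diet raised 8 of the 10 genes against chow, by 1.15-fold (Cideb) to 22.2-fold (Cidec). Plin3 and G0s2 did not pass the test. Genes pass here at an adjusted p under 0.05 in edgeR's quasi-likelihood test with Benjamini-Hochberg adjustment over 13967 genes. By that rule 30.8% of all genes tested passed in this comparison, 16.2% as higher and 14.6% as lower. Scaled by total count alone, 68.5% of the genes that passed were higher, against 52.6%. The median log2 fold change was 1.01 over the 10 members and -0.01 over all genes tested. For 6 members (Cidec, Plin4, Plin5, Fitm2, Plin2 and Hsd17b11) every ketogenic library lay above every chow library, which held for 12.2% of all genes tested (22.3% were apart in either direction, 10.1% as lower). The high-fat diet raised 2 members against chow, Plin4 and Fitm2, where 15.6% of all genes passed, 8.3% as higher and 7.32% as lower. No member had its high-fat and chow libraries apart, against 10.3% of all genes (5.5% higher, 4.81% lower). The median log2 fold change of the members was 0.11 there, beside 0.01 over all genes. In the direct test of ketogenic against high-fat libraries, which is the test of whether the responses to these diets differ, 8 members were higher on the ketogenic diet, where 26.1% of all genes passed, 13.1% as higher and 13% as lower. By total count alone 70.6% of those that passed were higher, against 50.1%. Those 8 members also had no overlap between the libraries of these diets, against 9.3% of all genes as higher (17% in either direction, 7.73% as lower). All 10 members passed the filter on low counts and are in each of these counts, and no member passed as lower in any comparison. Plin2 and Plin3 had negative values for high-fat against chow and passed as lower in some alternative fits, as given below. The comparisons share libraries and are not independent of each other. Since the members were chosen with earlier results of these data known, the shares over all genes describe the set and do not test it.

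**Figure D1:**
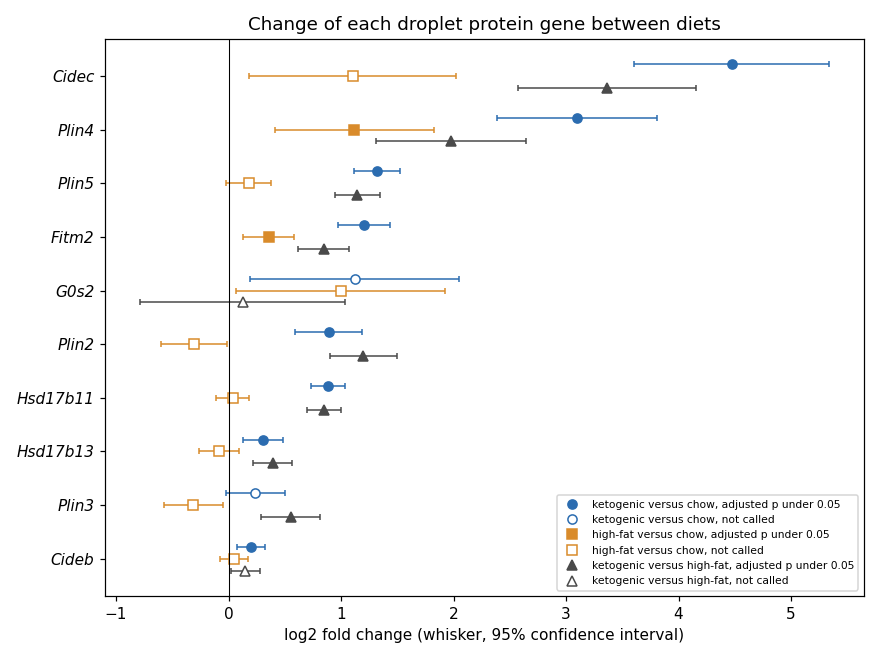
Log2 fold change of each droplet protein gene (rows) in 3 comparisons of diets, with 95% confidence intervals as whiskers; filled marks passed at an adjusted p under 0.05 and open marks did not. Cidec and Plin4 lie farthest right for the ketogenic diet, and high-fat against chow is filled only for Plin4 and Fitm2.

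Between 30121672 and 50914494 reads were assigned per library. Major urinary proteins, abundant secreted pheromone carriers, took 3.84 to 6.03% of the reads in ketogenic libraries and 7.71 to 14.5% in the others. Genes of the mitochondrial genome took 9.40 to 10.2% in ketogenic libraries and 10.6 to 12.4% in the others, so that this share, too, was apart by diet, and its part in the members' changes was not tested. Scaling by total count alone moved the median log2 fold change of all genes by less than 0.1. Hepatocyte markers were abundant in every library, with summed levels of 83720 to 95070 normalised CPM (counts per 1e6 scaled reads) in ketogenic, 72080 to 88910 in high-fat and 84640 to 93730 in chow libraries, as the label of liver requires. Of the 8 hepatocyte markers, 1 rose and 2 fell on the ketogenic diet against chow, where 16.2% of all genes passed as higher and 14.6% as lower. In whole liver, fewer cells of a type and less RNA per cell cannot be told apart. Markers of red cells, in blood or as precursors, fell on the ketogenic diet (6 of 6), with sums of 338.3 to 554.7 CPM against 735.3 to 1077 on chow. So did 5 of 6 B cell markers (2.76 to 3.85 against 4.81 to 15.6 CPM). None of 8 Kupffer cell markers passed between ketogenic and chow libraries (118.1 to 180.9 against 118.5 to 147.8 CPM). Of 10 markers of stellate cells, which keep retinoids in droplets, 3 rose and 1 fell (273.7 to 343.4 against 239.9 to 333.2 CPM). Between ketogenic and chow libraries 1 of 8 endothelial markers rose, none of 5 bile duct markers passed and the muscle marker that could be tested, Mylpf, fell. Between ketogenic and high-fat libraries 13.1% of all genes passed as higher and 13% as lower. There 2 Kupffer cell markers were higher on the ketogenic diet (Vsig4 and Cd5l), with sums of 118.1 to 180.9 against 91.2 to 157.4 CPM, as was 1 stellate marker (Dcn). In the same comparison 3 B cell markers, 2 red cell markers (Alas2 and Slc4a1) and the bile duct marker Sox9 were lower, and 2 hepatocyte markers were higher and 2 lower. The part of these shifts in the members' changes was not tested.

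The Cidec gene has 4 annotated transcripts that begin at separate places, and they are shown here because Cidec changed most and because the starts encode different ends of the protein. Cidec lies on chromosome 6 from 113424634 to 113435760 (GRCm38, minus strand, protein-coding). The windows below run from 250 bases before to 50 bases after a start, are RefSeq's for build GRCm38.p6, and carry the bases of the first exon in capitals. The upstream window is chr6:113435711-113436010 and the downstream window is chr6:113434715-113435014, both read on the minus strand, and both starts match an annotated transcript to the base (Cidec-202 and Cidec-203).

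Cidec upstream start: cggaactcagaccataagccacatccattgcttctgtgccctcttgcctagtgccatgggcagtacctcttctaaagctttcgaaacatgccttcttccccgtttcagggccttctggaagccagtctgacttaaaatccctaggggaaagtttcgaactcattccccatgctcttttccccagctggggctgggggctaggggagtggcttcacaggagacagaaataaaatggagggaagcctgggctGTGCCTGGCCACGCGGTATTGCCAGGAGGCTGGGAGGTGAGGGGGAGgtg

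Cidec downstream start: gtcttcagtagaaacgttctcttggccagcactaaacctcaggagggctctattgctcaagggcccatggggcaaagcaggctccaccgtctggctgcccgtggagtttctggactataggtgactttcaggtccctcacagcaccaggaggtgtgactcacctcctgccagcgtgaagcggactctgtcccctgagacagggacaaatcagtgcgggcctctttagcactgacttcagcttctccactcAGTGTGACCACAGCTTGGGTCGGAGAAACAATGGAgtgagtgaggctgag

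The start codon of Cidec-203 is in its own first exon. Before it reaches the start codon that Cidec-202 uses, it reads 30 bases, or 10 codons, in the same frame, so that its protein is longer at the front.

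Cidec-203 front: ATGgagtccaacacaatccaactgacaagg

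The capitals mark that start codon, whose first base is at position 113434734, while that of Cidec-202 is at 113434487.

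Cidec, which promotes the fusion and growth of droplets, stood at 2.83, 1.02, 1.91, 0.97 and 1.30 normalised CPM in the chow libraries (replicates 15 to 19). On the high-fat diet it stood at 2.19, 1.71, 5.68, 5.25 and 2.15 CPM (replicates 9, 10, 11, 12 and 14). On the ketogenic diet it stood at 37.6, 37.2, 49.3, 26.7 and 26.4 CPM (replicates 2, 3, 4, 6 and 8). The lowest ketogenic library was thus above every library of the other diets, while high-fat and chow libraries overlapped and high-fat replicates 11 and 12 stood apart from the other 3. The rise from chow to ketogenic was 4.47 ± 0.40 on the log2 scale (SE), or 22.2-fold with a 95% confidence interval of 12.2 to 40.4 (adjusted p = 3.92e-06). From high-fat to ketogenic it was 3.37 ± 0.37, or 10.3-fold (adjusted p = 3.49e-05). High-fat against chow gave 1.10 ± 0.42 (interval 0.18 to 2.02, adjusted p = 0.0985) and did not pass, although DESeq2 put it at an adjusted p of 0.0424. In reads, Cidec had 33 to 96 per chow library and 1080 to 1807 per ketogenic library.

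The estimated counts of Cidec were then divided by transcript. Cidec-201 and Cidec-202 start 4 bases apart and differ by 17 exonic bases, and the estimate gave nearly all of the pair's counts to 1 of them in every library but high-fat replicate 12. Their sum, the upstream start, held 83.1 ± 1.95% of the counts in ketogenic, 79.6 ± 3.88% in high-fat and 84.5 ± 10.3% in chow libraries (SD, n = 5). No pair of diets differed in that share by an exact permutation test (two-sided, p between 0.111 and 0.730; merging these starts was chosen after seeing the data), where 5 against 5 libraries can give no p below 0.00794. Cidec-203, with the longer protein, held 9.05 to 15.6% of the counts in ketogenic libraries. Its annotated end lies 923 bases short of that of Cidec-202, so that reads from the last part of the gene could be given only to the other transcripts. Shares of counts also favour longer transcripts, and Cidec-202, Cidec-203 and Cidec-204 have 1720, 785 and 376 bases. Per length, as deposited TPM, Cidec-202 stood at 16.7 to 34.9, Cidec-203 at 5.03 to 16.0 and Cidec-204 at 5.25 to 12.4 in ketogenic libraries. Cidec-203 had 122 to 249 estimated counts in ketogenic libraries and 0 to 12.7 in chow libraries. Only 35 of its 785 exonic bases are absent from Cidec-202, so these counts rest largely on how the estimate divides shared reads. Whether the downstream start itself rose was not tested.

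**Figure D2:**
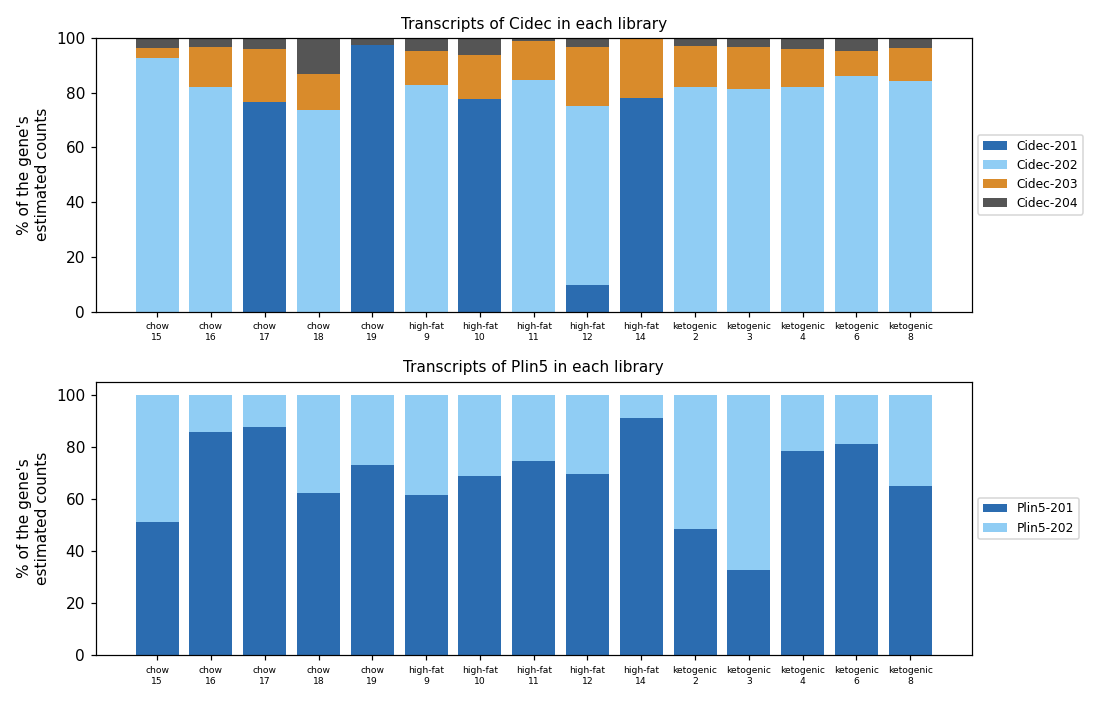
Share of the estimated counts of Cidec (top) and Plin5 (bottom) given to each annotated transcript, with 1 bar per library grouped by diet. In Cidec the upper part of the bar, Cidec-203 and Cidec-204, is the smaller part of the counts in all diets, without regard to transcript length. The rest passes between Cidec-201 and Cidec-202, and in Plin5 the 2 transcripts divide the counts unevenly from library to library.

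Cideb, the Cide protein of hepatocytes, acts in the lipidation of very low density lipoproteins as well as in droplet fusion. Its gene lies on chromosome 14 from 55754050 to 55758458 (minus strand). It had 169, 154, 147, 146 and 156 CPM on chow, 173, 167, 159, 150 and 149 CPM on the high-fat diet and 186, 165, 174, 181 and 178 CPM on the ketogenic diet, in the order of replicates used for Cidec. The ketogenic values sat at the top of a narrow range and overlapped those of chow, with chow replicate 15 above ketogenic replicate 3. The rise against chow was 1.15-fold (log2 fold change 0.20 ± 0.060, adjusted p = 0.0180). Against the high-fat diet the difference was 0.15 ± 0.060 (interval 0.02 to 0.28, adjusted p = 0.0743) and did not pass, though it did under DESeq2, total-count scaling and effective-length offsets and without high-fat replicate 9 (adjusted p between 0.00595 and 0.0351). Of the 1488 exonic bases of Cideb, 1136 are also exonic in Nop9, a gene on the opposite strand (76.3%), and the labels do not say whether the library kit kept strand. Nop9 itself had 11.1 ± 0.539 CPM on the ketogenic diet and 12.2 ± 0.998 on chow and did not pass (adjusted p = 0.206).

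Among the perilipins, Plin2 was the most abundant, and its promoter is shown with those of Plin5 and Hsd17b13 because these are the members in which the hexamer bound by nuclear receptors, TGACCT or its reverse complement AGGTCA, was found. The windows are RefSeq's, on build GRCm38.p6 and the minus strand, at chr4:86670010-86670309 for Plin2, chr17:56117499-56117798 for the upstream start of Plin5 and chr5:103977339-103977638 for Hsd17b13. Capitals mark the hexamer and, in Plin2, also CACGTG, an E-box.

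Plin2: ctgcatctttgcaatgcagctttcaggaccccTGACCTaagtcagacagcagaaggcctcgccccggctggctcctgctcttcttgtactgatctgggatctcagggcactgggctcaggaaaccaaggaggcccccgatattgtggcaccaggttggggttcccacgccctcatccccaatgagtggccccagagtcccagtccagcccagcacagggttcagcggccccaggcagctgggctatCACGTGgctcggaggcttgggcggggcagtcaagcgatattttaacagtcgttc

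Plin5: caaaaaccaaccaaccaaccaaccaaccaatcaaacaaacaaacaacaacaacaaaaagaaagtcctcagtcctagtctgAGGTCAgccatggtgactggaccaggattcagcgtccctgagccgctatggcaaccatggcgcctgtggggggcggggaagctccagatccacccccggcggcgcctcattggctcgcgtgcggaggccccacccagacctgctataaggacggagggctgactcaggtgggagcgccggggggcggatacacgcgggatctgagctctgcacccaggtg

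Hsd17b13: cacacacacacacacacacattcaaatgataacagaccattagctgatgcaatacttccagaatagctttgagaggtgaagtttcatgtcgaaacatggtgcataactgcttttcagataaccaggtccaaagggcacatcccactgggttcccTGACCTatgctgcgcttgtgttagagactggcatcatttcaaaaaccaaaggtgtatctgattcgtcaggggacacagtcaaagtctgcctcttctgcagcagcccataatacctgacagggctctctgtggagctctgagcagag

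Positions count from RefSeq's start, which lies 1 base from the nearest annotated transcript start of GENCODE M21 in Plin2, 48 bases from it in the upstream window of Plin5 and 22 bases from it in Hsd17b13. The hexamer begins 218 bases before that start in Plin2, 170 before it in Plin5 and 96 before it in Hsd17b13, and again 13 bases after the downstream start of Plin5. It was found in 4 of 12 windows of the members and in 16.3% of 32851 windows of all genes, both strands counted. The E-box was found in 1 member window and in 7.15% of all windows. The direct repeat (AGGTCA, any base, AGGTCA), its looser form (AGGNCA, any base, AGGNCA) and the sterol element (ATCAC, any base, CCAC) were found in no member window and in 0.0396, 0.381 and 0.234% of all windows. The hexamer is itself contained in the strict direct repeat. These matches describe letters in these windows only.

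Plin2 lies on chromosome 4 from 86648386 to 86670060 and codes for the main coat protein of liver droplets. It had 424, 343, 383, 420 and 325 CPM on chow and 398, 296, 255, 290 and 294 CPM on the high-fat diet. On the ketogenic diet it had 767, 869, 708, 682 and 487 CPM. Every ketogenic library was above the other 10, and the high-fat libraries tended to the lower side of chow and overlapped them. The rise over chow was 1.85-fold (0.89 ± 0.14, interval 1.51 to 2.27-fold, adjusted p = 1.40e-04) and over the high-fat diet 2.29-fold (1.197 ± 0.14, adjusted p = 1.65e-05). High-fat against chow gave -0.31 ± 0.14 (adjusted p = 0.147). High-fat replicate 9 (398 CPM) was the highest of its diet and lay within the chow range, and without it the value was -0.42 and passed (adjusted p = 0.0322). Its gap to the next library just passed the outlier limit (0.713 against 0.71), the only mark among 30 groups, where chance gives about 1.5.

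Plin3, a coat protein that moves from the cytosol to young droplets, lies on chromosome 17 from 56277476 to 56292873. It had 28.3, 20.4, 24.1, 24.2 and 23.1 CPM on chow, 22.5, 19.4, 19.1, 17.7 and 17.8 CPM on the high-fat diet and 23.7, 28.6, 38.8, 27.0 and 23.4 CPM on the ketogenic diet. The ketogenic libraries did not overlap the high-fat ones and did overlap those of chow, ketogenic replicate 4 being the highest of all. Ketogenic against high-fat passed (0.55 ± 0.12, 1.47-fold, adjusted p = 0.00405), whereas ketogenic against chow did not (0.24 ± 0.12, interval -0.02 to 0.50, adjusted p = 0.160). High-fat against chow gave -0.31 ± 0.12 (adjusted p = 0.0985), and passed with those diets alone in the fit (0.0293), with effective-length offsets (0.0314) and without ketogenic replicate 4 (0.0247).

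Plin4 and Plin5 are neighbours on chromosome 17, from 56100591 to 56109803 and from 56111601 to 56117596, both on the minus strand and 1798 bases apart. Plin4, a perilipin with a long run of repeats that is best known from fat cells and muscle, had 4.01, 5.35, 7.68, 5.10 and 4.53 CPM on chow. On the high-fat diet it had 8.41, 6.55, 14.7, 9.45 and 18.8 CPM, and on the ketogenic diet 27.5, 44.2, 69.6, 40.8 and 46.5 CPM. The ketogenic libraries were above all others, and only high-fat replicate 10 fell within the chow range. The rise over chow was 8.54-fold on the ketogenic diet (3.09 ± 0.33, interval 5.22 to 14.0-fold, adjusted p = 1.62e-05). On the high-fat diet it was 2.17-fold (1.12 ± 0.33, adjusted p = 0.0362), a call that was lost without any of high-fat replicates 11, 12 and 14 or chow replicates 15, 16, 18 and 19 (adjusted p between 0.0524 and 0.0857), with no filter on low counts (0.0569) and under total-count scaling (0.0520). Ketogenic against high-fat gave 1.98 ± 0.31 (adjusted p = 5.77e-04).

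Since Plin4 and Cidec are known from fat cells, markers of adipocytes were read in each library. Of 10 such markers, 5 passed the filter on low counts and 1, the lipase gene Pnpla2 that hepatocytes also use, rose on the ketogenic diet. The summed level of the list, most of it Car3, was 2193 to 5343 CPM in ketogenic, 2525 to 3814 in high-fat and 3937 to 5009 in chow libraries. Adipoq, which codes for adiponectin, had 1 to 6 reads per ketogenic library, 0 to 4 per high-fat library and 0 to 61 per chow library. Lep, the leptin gene, had 0 reads in all ketogenic libraries and 13 in chow replicate 17, the library with the most Adipoq, Lep and Plin1 reads (61, 13 and 27). That library also had the highest Plin4 among those of chow. Cidec stood at 1.91 CPM in it and was highest on chow in replicate 15 (2.83 CPM), which had 0 Adipoq reads. Retn, the resistin gene, had 0 to 3 reads in ketogenic and 1 to 14 in chow libraries. Cfd, which codes for adipsin, was higher on average on the ketogenic diet, at 2.65 ± 2.35 CPM (23 to 312 reads) against 0.934 ± 0.912 on chow (6 to 85 reads), without passing the test. Among ketogenic libraries Cfd was highest in replicates 6 and 8 (312 and 158 reads), where Cidec was lowest. High-fat replicate 11 had 205 Cfd reads, against 10 to 28 in the others of its diet, and the highest Cidec of that diet (5.68 CPM). Fabp4, a fatty acid carrier, stood at 7.04 ± 0.573 CPM on the ketogenic diet (269 to 318 reads) and 7.23 ± 3.60 on chow. In ketogenic libraries Adipoq, Lep, Plin1 and Retn were thus at or near 0, whereas Cfd and Fabp4 were not, and the part of fat cells in the levels of Plin4 and Cidec was not tested. Plin1, the perilipin of fat cells, had 1 to 3 reads in ketogenic libraries, 1 to 5 in high-fat and 1 to 27 in chow libraries and was not tested, nor was Cidea, with 0 to 7 reads in all libraries but high-fat replicate 11, which had 65.

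Plin5, which coats droplets in tissues that burn fat and brings them close to mitochondria, had the smallest adjusted p of the members for ketogenic against chow. It stood at 40.2, 37.2, 43.1, 37.2 and 34.2 CPM on chow, at 37.9, 42.6, 44.1, 40.7 and 51.9 CPM on the high-fat diet and at 74.5, 108.3, 96.8, 99.0 and 102.1 CPM on the ketogenic diet. The ketogenic libraries lay wholly above the others, and those of high-fat and chow overlapped. The rise over chow was 2.503-fold (1.32 ± 0.098, interval 2.17 to 2.88-fold, adjusted p = 2.37e-08) and over the high-fat diet 2.21-fold (1.15 ± 0.097, adjusted p = 3.02e-07). High-fat against chow gave 0.18 ± 0.097 (interval -0.03 to 0.38, adjusted p = 0.225). Plin5 has 2 transcripts with starts 298 bases apart. The transcript from the upstream start took 61.1 ± 20.5% of its counts in ketogenic, 73.1 ± 11.1% in high-fat and 72.0 ± 15.4% in chow libraries (SD, n = 5), from 32.7 to 81.0% among ketogenic libraries alone. No difference passed (exact permutation test, two-sided, p between 0.286 and 0.889), and each transcript has 101 exonic bases of its own to tell them apart. Over the 15 such tests in Cidec, Plin4, Plin5 and Hsd17b13 none passed after adjustment, and none had an unadjusted p under 0.05. With 15 tests adjusted together, a single share at the lowest possible p of 0.00794 could not have passed by itself. The adjusted result therefore says little about single transcripts.

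Lrg1, a secreted glycoprotein gene of the acute phase, lies 2082 bases beyond Plin5. It rose from 134.0 ± 11.8 CPM on chow to 335.3 ± 53.4 on the ketogenic diet (1.32 ± 0.11, adjusted p = 2.06e-07) and to 181.8 ± 27.4 on the high-fat diet (0.44 ± 0.11, adjusted p = 0.0141). Hdgfl2, which shares 17 exonic bases with Plin4 on the other strand, fell on the ketogenic diet (-0.35 ± 0.065, adjusted p = 3.99e-04). Of 11 protein-coding genes that overlap a member or are its nearest neighbour within 10 kb, 10 were tested, and 5 rose and 2 fell on the ketogenic diet against chow. Of all genes tested, 16.2% rose and 14.6% fell in that comparison.

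**Figure D3:**
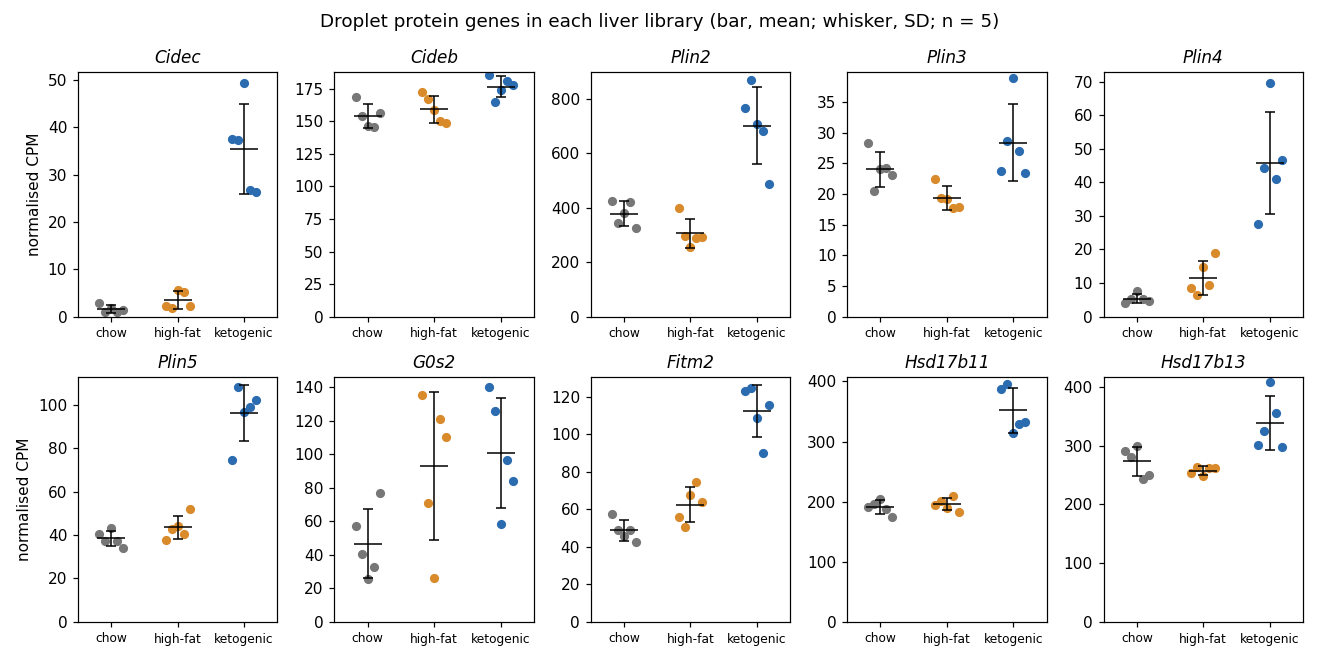
Normalised CPM of each droplet protein gene in each of the 15 libraries by diet, as points, with the mean as a bar and the SD as whiskers; every axis starts at 0. The ketogenic points are clear of the chow points for Cidec, Plin2, Plin4, Plin5, Fitm2 and Hsd17b11, and the points of G0s2 spread widely in every diet.

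G0s2 inhibits the lipase Pnpla2, and its gene is short, on chromosome 1 from 193272161 to 193273217. It had 57.4, 40.2, 25.7, 32.8 and 76.9 CPM on chow, 135.7, 71.0, 26.3, 121.0 and 110.1 CPM on the high-fat diet and 140.5, 126.1, 58.3, 96.9 and 83.9 CPM on the ketogenic diet. All diets overlapped, and high-fat replicate 11 was about as low as the lowest chow library. The coefficient of variation was 32.5% in ketogenic, 47.7% in high-fat and 44.2% in chow libraries, against 4.43, 6.57 and 6.02% for Cideb. Neither fat-rich diet passed against chow, with values of 1.12 ± 0.43 for the ketogenic diet (interval 0.19 to 2.05, adjusted p = 0.0659) and 0.995 ± 0.43 for the high-fat diet (interval 0.07 to 1.92, adjusted p = 0.137). For the ketogenic diet it passed with DESeq2 (adjusted p = 0.0279), limma-voom (0.0321), those diets alone (0.0398), and without high-fat replicate 11 (0.0228) or chow replicate 19 (0.0390). For the high-fat diet it passed without high-fat replicate 11 (1.23, adjusted p = 0.0394). Between the fat-rich diets the value was 0.12 ± 0.42, with an interval from -0.79 to 1.04 that leaves room for a difference in either direction.

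Fitm2, which takes part in the budding of droplets from the endoplasmic reticulum, lies on chromosome 2 from 163466379 to 163472629. It had 57.3, 49.03, 46.0, 48.7 and 42.7 CPM on chow, 55.7, 50.6, 67.4, 74.5 and 64.1 CPM on the high-fat diet and 123.0, 124.6, 108.5, 90.2 and 115.7 CPM on the ketogenic diet. The order of the diets was chow, high-fat, ketogenic, with high-fat replicates 9 and 10 inside the chow range and no overlap with the ketogenic libraries. The rise over chow was 2.31-fold on the ketogenic diet (1.205 ± 0.11, adjusted p = 3.15e-07) and 1.28-fold on the high-fat diet (0.36 ± 0.11, adjusted p = 0.0321). The high-fat call was lost when any of high-fat replicates 11, 12 and 14 or of chow replicates 16 to 19 was left out (adjusted p of 0.0563 to 0.0890) and under total-count scaling (0.0696). Ketogenic exceeded high-fat by 0.85 ± 0.11 (adjusted p = 2.48e-05). Of the 3967 exonic bases of Fitm2, 227 (5.72%) are also exonic in 2310001K24Rik, an antisense gene on the opposite strand.

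Hsd17b11 and Hsd17b13 are neighbours on chromosome 5, from 103989762 to 104021919 and from 103955440 to 103977410, and both code for droplet dehydrogenases. Hsd17b11 had 191.2, 196.8, 204.3, 187.5 and 174.3 CPM on chow, 194.6, 201.4, 189.7, 209.7 and 183.0 CPM on the high-fat diet and 387.3, 396.1, 313.7, 330.0 and 331.8 CPM on the ketogenic diet. High-fat and chow libraries overlapped, and the lowest ketogenic library lay well above both. The rise over chow was 1.84-fold (0.88 ± 0.072, interval 1.66 to 2.05-fold, adjusted p = 6.29e-08) and over the high-fat diet 1.80-fold (0.85 ± 0.072, adjusted p = 2.80e-07). High-fat against chow gave 0.04 ± 0.072, with an interval from -0.11 to 0.19.

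Hsd17b13, which is found mainly in hepatocytes, changed by a smaller factor than Hsd17b11. It had 291.4, 280.8, 299.6, 242.9 and 250.5 CPM on chow, 252.6, 263.2, 247.8, 261.6 and 262.7 CPM on the high-fat diet and 300.6, 325.6, 408.3, 356.1 and 298.0 CPM on the ketogenic diet. The ketogenic libraries were above all high-fat ones, and ketogenic replicate 8 fell just below the highest chow library. The rise over chow was 1.24-fold (0.31 ± 0.083, adjusted p = 0.00874) and over the high-fat diet 1.31-fold (0.39 ± 0.083, adjusted p = 0.00223). High-fat against chow gave -0.08 ± 0.083 (interval -0.26 to 0.09). The main transcript of Hsd17b13, which starts farthest upstream, took 93.7 ± 3.10, 93.0 ± 3.83 and 89.8 ± 2.29% of its counts on the ketogenic, high-fat and chow diets (SD, n = 5), and no pair of diets passed (exact permutation test, two-sided, smallest p = 0.0556, adjusted 0.500).

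To set the members beside each other, levels were read per transcript length, as the deposited TPM, a length-scaled share of transcripts, summed per gene. On chow the order was Plin2 (265.6 ± 37.3 TPM, SD, n = 5), Hsd17b13 (244.3 ± 32.7), Cideb (140.4 ± 12.7), Hsd17b11 (110.3 ± 14.9), G0s2 (69.9 ± 24.4), Plin5 (22.6 ± 3.24), Fitm2 (12.3 ± 1.77), Plin3 (7.72 ± 1.04), Cidec (1.53 ± 0.616) and Plin4 (0.979 ± 0.308). The libraries of neighbours in this order overlapped for Plin2 and Hsd17b13, Cideb and Hsd17b11, Hsd17b11 and G0s2, and Cidec and Plin4, and were apart for the rest. On the ketogenic diet Cidec stood at 42.8 ± 14.3 TPM, overlapping Plin5 (70.5 ± 8.98) above it and Fitm2 (35.2 ± 5.69) below it, while on chow it lay below Plin3. Plin4 had the lowest mean in each diet, but its libraries overlapped those of Cidec on chow and the high-fat diet and those of Plin3 on the ketogenic diet (10.5 ± 3.80 TPM for Plin4 and 11.3 ± 3.29 for Plin3). Without ketogenic replicate 2 that last order turned, to 11.4 TPM for Plin4 and 11.2 for Plin3. The order of G0s2 and Cideb, which overlapped on both fat-rich diets, also turned without ketogenic replicate 4 or without high-fat replicate 9, 12 or 14. Plin2 stood at 636.2 ± 160.4 TPM on the ketogenic and 218.4 ± 43.7 on the high-fat diet, where Hsd17b13 (229.7 ± 45.5) was level with it. The 10 members together held 1837 ± 285.5 TPM in ketogenic, 904.5 ± 200.9 in high-fat and 875.6 ± 68.9 in chow libraries (SD, n = 5). Plin2 made up 34.2 ± 3.84, 24.3 ± 2.15 and 30.3 ± 2.64% of that sum, and Cidec 2.30 ± 0.570, 0.374 ± 0.221 and 0.173 ± 0.0644%, in the same order. TPM lacks the scaling between libraries that the CPM values have, so TPM differences between diets are not the tested changes. Cideb, 1.15-fold higher in the test, went from 140.4 TPM on chow to 205.4 on the ketogenic diet. In normalised CPM the members summed to 1692 to 2225 in ketogenic, 1029 to 1281 in high-fat and 1089 to 1265 in chow libraries.

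**Figure D4:**
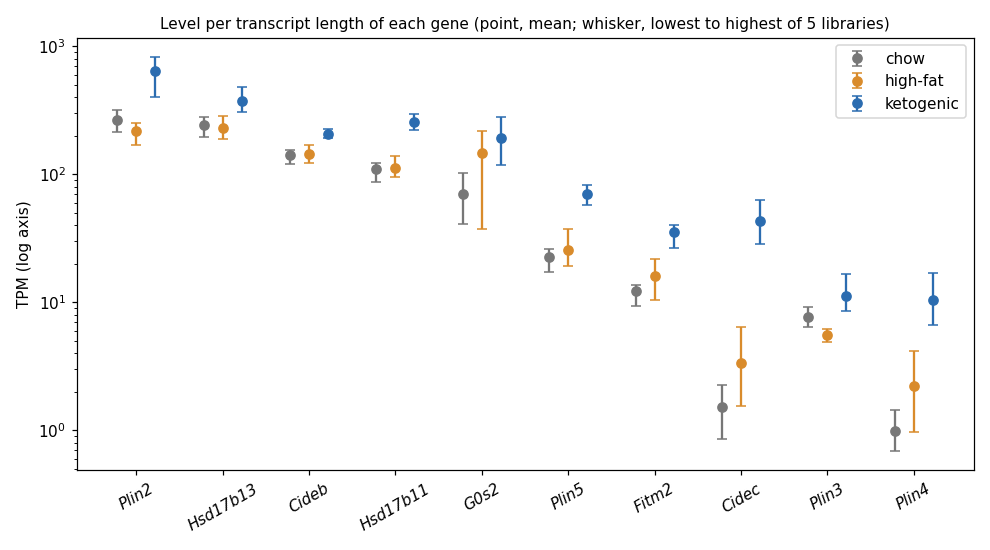
Level of each droplet protein gene in TPM on a log axis, by diet, with the mean as a point and the lowest and highest of 5 libraries as whiskers. Genes are ordered by their mean over all libraries, from Plin2 to Plin4, and Cidec is the gene whose ketogenic point is farthest from its chow point.

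No single library led for all members. Among ketogenic libraries, replicate 4 was highest for 4 members (Cidec, Hsd17b13, Plin3 and Plin4) and lowest for G0s2 and Hsd17b11, and replicate 3 was highest for 4 others (Fitm2, Hsd17b11, Plin2 and Plin5). Replicate 8 was lowest for Cidec, Hsd17b13, Plin2 and Plin3. On the high-fat diet, replicate 9 was highest for Cideb, G0s2, Plin2 and Plin3, and replicate 11 was highest for Cidec and lowest for G0s2, Hsd17b13 and Plin2. On chow, replicate 15 was highest for 5 members (Cideb, Cidec, Fitm2, Plin2 and Plin3) and lowest for Plin4, replicate 17 was highest for 4 (Hsd17b11, Hsd17b13, Plin4 and Plin5), and replicate 19 was lowest for 4 (Fitm2, Hsd17b11, Plin2 and Plin5).

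The profile of each member over the 15 libraries was compared with that of 8781 other protein-coding genes with a mean of at least 5 CPM, by the root mean square difference of log2 CPM after each gene's own mean was taken off. For Cidec the nearest were Apoa4, an apolipoprotein of triglyceride-rich particles (0.64 log2 units, where Cidec's own spread about its mean was 2.01), and Cyp2a22 (0.93). For Plin5 they were Acadm, an enzyme of mitochondrial fatty acid oxidation (0.15 against a spread of 0.60), and Serpina3m, a protease inhibitor gene (0.20). Fitm2 lay nearest to Hadhb, of the mitochondrial trifunctional protein (0.15 against 0.53), and Vwa8 (0.16). Hsd17b11 lay nearest to Hadha, the partner of Hadhb, and Decr1, a reductase of unsaturated fatty acid oxidation (both 0.09 against 0.42). Plin2 lay nearest to Crat, carnitine acetyltransferase (0.18 against 0.55), and Grpel2, a mitochondrial import factor (0.20). Plin4 lay nearest to Mt1, a metallothionein (0.46 against 1.34), and Lipg, endothelial lipase (0.61). G0s2 lay nearest to Inhbe, a secreted signal of the activin family (0.41 against 0.82), and Epha2, a receptor kinase (0.51). Hsd17b13 lay nearest to Tmed4 and Copa (both 0.10 against 0.20), of transport between endoplasmic reticulum and Golgi. Cideb lay nearest to Coq9, of coenzyme Q synthesis (0.04 against 0.11), and Sdhc, a subunit of succinate dehydrogenase (0.05). Plin3 lay nearest to Ifitm3 (0.14 against 0.29) and Sgk2 (0.15). These are descriptions over libraries that share the diets.

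The remaining genes of fat storage were taken from lists. Beside each count below stand the shares over all genes tested. Against chow, 16.2% rose and 14.6% fell on the ketogenic diet, and 8.3% rose and 7.32% fell on the high-fat diet. Of 10 genes of droplet lipolysis, 3 rose (Pnpla2, Mgll and Lipa) and 4 fell (Abhd5, Pnpla3, Ces1f and Aadac) on the ketogenic diet against chow, with a median log2 fold change of 0.14. Pnpla2, the triglyceride lipase held back by G0s2, rose from 30.5 ± 3.26 to 43.3 ± 2.91 CPM (0.50 ± 0.085, adjusted p = 1.87e-04). Abhd5, its activator, which perilipins hold in reserve, fell from 34.0 ± 4.12 to 25.0 ± 0.805 CPM (-0.44 ± 0.078, adjusted p = 2.98e-04). Mgll, which splits monoglyceride, rose 2.38-fold (1.25 ± 0.10, adjusted p = 5.98e-08). Pnpla3, a droplet lipase family member under the control of SREBP1c, fell from 4.46 ± 1.99 to 0.0927 ± 0.0497 CPM (-5.57 ± 0.38, adjusted p = 1.49e-08). On the high-fat diet Pnpla3 (-3.40 ± 0.31, adjusted p = 6.06e-06) and Ces1f (-0.44 ± 0.086, adjusted p = 0.00227) fell and no gene of this list rose.

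Of 14 genes of droplet formation and triglyceride synthesis, 1 rose and 2 fell on the ketogenic diet, around a median of 0.03. Pcyt1a, which makes the phosphatidylcholine that covers growing droplets, rose (0.34 ± 0.068, adjusted p = 7.72e-04), and Acsl4 (-0.78 ± 0.078, adjusted p = 7.21e-07) and Gpam (-0.74 ± 0.22, adjusted p = 0.0189), enzymes of fatty acid activation and glycerolipid synthesis, fell. On the high-fat diet Gpam and Lpcat2 fell and none rose. Of 18 other proteins reported on droplets, 7 rose and 3 fell on the ketogenic diet (median 0.02), and 1 rose and 2 fell on the high-fat diet. Acsl1, an acyl-CoA synthetase, rose from 1633 ± 156.3 to 2501 ± 285.9 CPM (0.62 ± 0.091, adjusted p = 5.23e-05). The retinal reductases Dhrs3 (-0.65 ± 0.080, adjusted p = 6.37e-06) and Rdh11 (-1.48 ± 0.18, adjusted p = 3.53e-05) fell.

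Of 9 regulators of droplet genes, 4 rose (Ppara, Rxra, Creb3l3 and Foxo1), 2 fell (Srebf1 and Mlxipl) and 3 did not pass on the ketogenic diet against chow (median 0.46). Against chow the high-fat diet had 4 that rose (Ppara, Rxra, Creb3l3 and Nr1h3), 2 that fell (Pparg and Mlxipl) and 3 that did not pass (median 0.11). Ppara rose from 52.1 ± 6.996 to 142.2 ± 16.3 CPM on the ketogenic diet (1.45 ± 0.12, adjusted p = 1.70e-07) and to 82.7 ± 14.8 on the high-fat diet (0.67 ± 0.12, adjusted p = 0.00150). Creb3l3, a hepatocyte factor of the fasting response, rose by 0.53 ± 0.062 (adjusted p = 4.73e-06) on the ketogenic diet, and Mlxipl, the carbohydrate-responsive factor, fell by 1.22 ± 0.11 on the log2 scale (adjusted p = 2.22e-07). Pparg, the receptor that drives droplet genes in fat cells, stood at 12.1 ± 1.04 CPM on the ketogenic diet against 12.7 ± 4.35 on chow (adjusted p = 0.829) and fell on the high-fat diet to 7.48 ± 2.04 (adjusted p = 0.0297). Of 16 targets of PPARalpha outside the members, 13 rose and none fell on the ketogenic diet (median 1.05), while on the high-fat diet 1 rose (Cpt1a) and 4 fell (Pdk4, Acot1, Ehhadh and Fabp1; median 0.11).

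**Figure D5:**
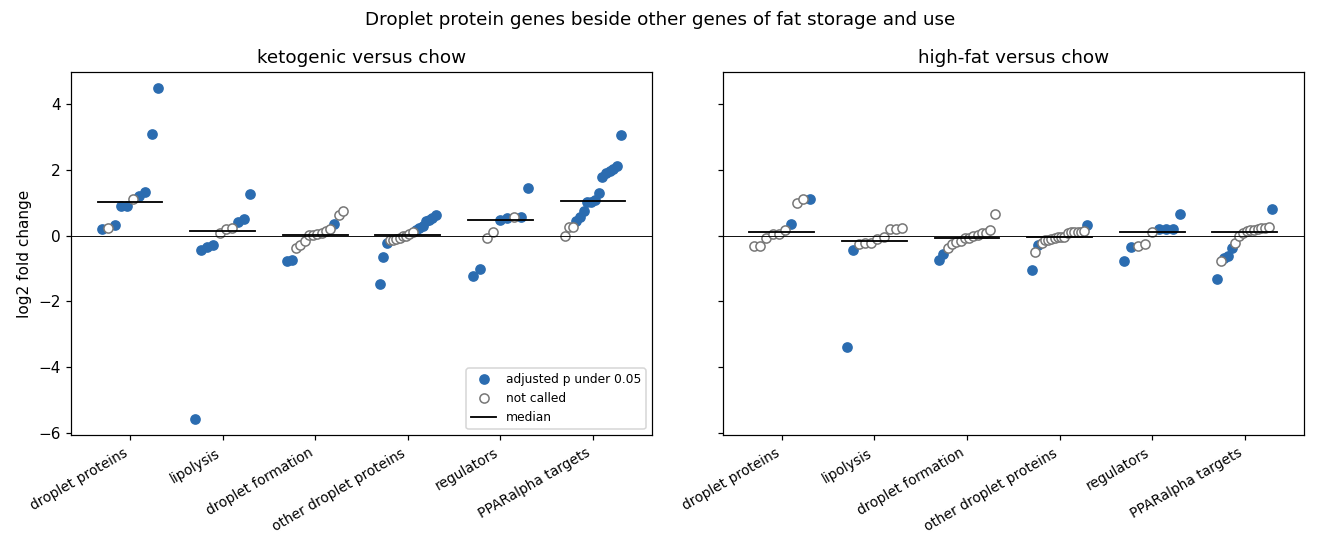
Log2 fold change against chow of the droplet protein genes and 5 lists of related genes, on the ketogenic diet (left) and the high-fat diet (right); each point is a gene, filled where the adjusted p was under 0.05, and the line is the list's median. On the left the medians are 1.01 (droplet proteins), 0.14 (lipolysis), 0.03 (droplet formation), 0.02 (other droplet proteins), 0.46 (regulators) and 1.05 (PPARalpha targets). On the right they are 0.11, -0.17, -0.07, -0.04, 0.11 and 0.11 in the same order. Links between the lists were not tested.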

How the data were processed

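Liver RNA of 15 libraries, 5 per diet, was measured. The authors deposited, per the file headers, an estimated count and a TPM for each of 106332 transcripts, with annotated and effective lengths. Per the submitters' processing notes the tools were Trimmomatic 0.36, kallisto 0.44 and edgeR 3.28, on GRCm38.p6. Neither their settings nor the annotation release is known here. GENCODE M21 matched 105734 transcripts to 25731 genes, and the other 598, with at most 0.223% of the reads, were left out. Estimated counts were summed per gene, rounded and filtered with edgeR's filterByExpr (minimum count 10, total 15), which kept 13967 genes. edgeR 4.0.16 in R 4.3.3 was run once over the 15 libraries, with TMM scaling and a robust quasi-likelihood fit, and standard errors are the log2 fold change over the root of F. CPM is scaled by TMM library sizes. The common coefficient of variation between libraries was 0.131. The code was tested on simulated data.

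Members, lists and tests were chosen with earlier results of these data known. Values are given for the members, for up to 3 genes of smallest adjusted p per list and comparison, for the 2 nearest profiles per member and for neighbours within 10 kb. Other list genes are named where counted. The values of Abhd5 and Pparg for ketogenic against chow, and those of single adipocyte markers, fall outside that rule and were chosen after they were seen. Transcript shares used transcripts with at least 5% of a gene's counts and exact permutation tests. Alternatives were DESeq2 1.42.0, limma-voom (limma 3.58.1), other scalings, filters, length offsets, those diets alone in the fit and leaving out each library. Promoter sequences are RefSeq's for GRCm38.p6 and matched all 10 members.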

Additional observations from a re-analysis of the deposited data

Results flagged for a closer look

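Plin2 in high-fat replicate 9 stood at 398.2 normalised CPM, while the next highest of the 5 high-fat libraries had 296.1. Its gap to that library was 0.713 of the whole range of the group, above the limit of 0.71 used for 5 samples. This was the single value marked among 30 groups of libraries (10 members by 3 diets), where chance marks about 1.5. High-fat replicate 9 was also the highest of its diet for Cideb, G0s2 and Plin3.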

How the results depend on the processing

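The 8 members called for ketogenic against chow, and the 8 for ketogenic against high-fat, kept their calls under all 23 alternatives, in which 8 or 9 members were called. For high-fat against chow 2 members were called, with 0 under total-count scaling, 1 with no filter on low counts and 0 to 3 over the fits that each left out a library. G0s2 between ketogenic and high-fat changed sign without ketogenic replicate 2 (-0.02) and without high-fat replicate 11 (-0.11), and did not pass in either case; over all fits without a single library it ran from -0.11 to 0.30. Under total-count scaling 68.5% of the calls for ketogenic against chow were rises, against 52.6%, and for ketogenic against high-fat 70.6 against 50.1%. No transcript share passed under any of 18 alternatives, although leaving out a library allows no exact p below 0.0159. Of the 30 ranks of members by TPM in the 3 diets, 26 to 30 were kept. The cause of these changes was not tested. No paired analysis was possible because the label numbers do not recur between diets.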
